A study of Mus musculus with 36 samples.

Results

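Livers of 6 wild-type mice fasted for 16 h were compared with livers of 6 wild-type mice that had free access to chow, 12 of the 36 libraries in the series. The fasted mice are those titled ONF_WT and the fed mice those titled ALC_WT, each followed by a mouse number, and each library came from a separate male C57Bl/6J mouse aged 16 weeks. The series also holds 6 wild-type mice refed chow for 6 h after the fast and the same 3 states in mice heterozygous for a stop mutation of *Pik3r1*, WT/Y657*, made by gene targeting, with 6 mice per state. Total RNA was made into stranded libraries and sequenced as single reads of 50 bases, and an estimated count was deposited for each of 38283 genes. Total counts ran from 11140555 to 15559289 in fed mice, with a median of 12604486, and from 8839488 to 14482781 in fasted mice, with a median of 14079437. Fed livers were taken before the overnight fast and fasted livers after it, so feeding state and time of day cannot be told apart. Fasted mice came from a lower series of mouse numbers (ONF_WT_807, ONF_WT_824 and ONF_WT_825) and a higher one (ONF_WT_918, ONF_WT_919 and ONF_WT_920), and the fed mice, ALC_WT_847 to ALC_WT_860, from neither. All 6 fasted libraries shared a library index that none of the fed libraries carried, so index and feeding state cannot be told apart either.

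In an overnight fast the liver turns from storing fuel to releasing it. Low insulin, high glucagon and the fatty acids arriving from adipose tissue lead it to make glucose from lactate, glycerol and amino acids and to burn fatty acids to ketone bodies, a programme in which the fatty acid receptor *Ppara* has a central part, while synthesis of fatty acids and cholesterol under the Srebp transcription factors is turned down. The liver also makes most plasma proteins, which pass through its endoplasmic reticulum, and it keeps a circadian clock that responds to feeding times.

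Fasting moved levels in both directions. Among the largest changes were rises in genes of omega-oxidation and of acyl-CoA thioesterases and falls in genes of lipid synthesis. Genes of fatty acid oxidation rose almost throughout, at a smaller median log2 fold change of 1.07. Of 13945 genes tested, 4464 (32%) were called by the quasi-likelihood test of edgeR at a Benjamini-Hochberg adjusted p under 0.05, 2028 (14.5%) higher and 2436 (17.5%) lower in fasted mice. Changes of at least 2-fold were called for 842 genes (6.04%), 389 (2.79%) higher and 453 (3.25%) lower. In 2384 called genes (17.1% of those tested) the 6 fasted mice did not overlap with the 6 fed mice in CPM, which scale each count to the size of its library. Large changes were few: 182 called genes moved by at least 2 log2 units, 56 by at least 3, 21 by at least 4 and 9 by at least 5. The median log2 fold change over all genes tested was 0.01. Throughout, log2 fold changes are of fasted over fed mice with their standard error (SE), and "called" refers to the edgeR test above. Among protein-coding genes 1889 were called higher and 2292 lower of 12652 tested.

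**Figure D1:**
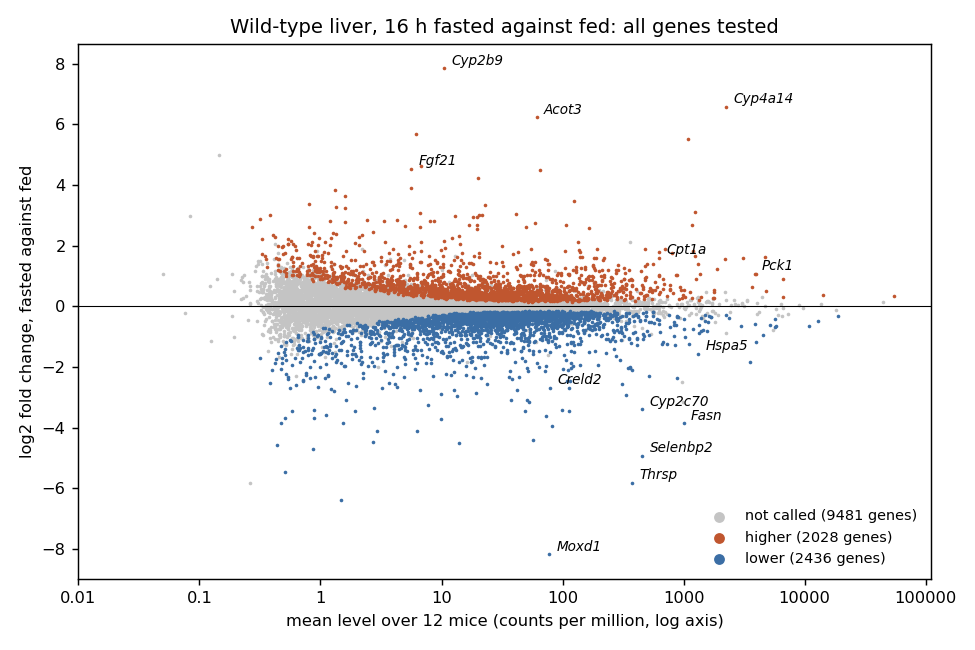
Mean level over the 12 mice (CPM, log axis) against the log2 fold change of fasted over fed wild-type mice for 13945 genes, with 2028 called higher in orange, 2436 called lower in blue and the others in grey. A few genes named in the text are labelled, from *Cyp2b9* at 7.84 to *Moxd1* at -8.19.

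The all-gene plot shows that large changes occurred at low and at high levels, and several of the genes at its edges belong to none of the pathways named here. *Moxd1*, a monooxygenase homolog whose substrate is unknown (ENSMUSG00000020000, chromosome 10), ran from 5.66 to 390.5 CPM in fed mice (median 148) and from 0.145 to 0.922 in fasted mice (median 0.497). Fed mice thus differed widely among themselves, yet each lay above every fasted mouse; the log2 fold change was -8.19 (SE 1.52, adjusted p = 9.4e-05, edgeR), and limma-voom did not call it (-7.36, adjusted p = 0.139). Without ALC_WT_847, ALC_WT_849 and ONF_WT_807, 3 mice with raised acute-phase RNA, the value was -7.06. *Selenbp2*, a selenium-binding protein with a close paralog, ran from 582 to 1419.6 CPM in fed mice (median 834) and from 6.44 to 61.9 in fasted mice (median 27.98), a log2 fold change of -4.94. Falls without overlap were also found for *Scara5*, a ferritin receptor (-4.50), *Xirp1*, an actin-binding protein better known from muscle (-4.13), and *Fabp5*, a fatty acid-binding protein (-3.72). Rises of the same kind in genes with low fed levels were those of *Nipal1*, a magnesium transporter family member (4.63), *Npnt*, which encodes the matrix protein nephronectin (3.84), *Lrrc15*, a leucine-rich repeat membrane protein (3.63), and *Slc6a16*, an orphan member of the neurotransmitter transporter family (3.27). In fed mice the medians of these 4 genes lay between 0.128 and 0.373 CPM, so their fold changes rest on few fed counts. That of *Nipal1* was 5.25 without ALC_WT_847, its highest fed mouse, and that of *Npnt* 3.04 without the same 3 mice.

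The tissue label was checked against markers. Summed CPM of 10 hepatocyte markers ran from 79169 to 104490 in fed and from 85241 to 106840 in fasted mice, *Alb* being the most abundant at a mean of 48183 CPM in fed and 61283 in fasted mice. Markers of other cells were low and their groups overlapped for most lists; their part in the result was not tested. Medians of the summed CPM in fed and fasted mice were 374 and 475 for 12 Kupffer cell markers (most abundant *Clec4f*), 598 and 653 for 12 sinusoidal endothelial markers (*Stab2*), 558 and 551 for 12 stellate cell and fibroblast markers (*Reln*), 72.3 and 51.0 for 9 bile duct cell markers (*Spp1*), and 288 and 269 for 6 red blood cell markers (*Hbb-bs*). Lymphocyte markers had medians of 7.05 and 10.8 CPM (*Ighm*), adipocyte markers 5.68 and 8.21 (*Fabp4*), and neutrophil markers 5.03 and 3.56 (*Csf3r*, with *Ly6g* at 0 in all 12 mice). Skeletal muscle markers were at most 1.08 CPM in any mouse and pancreas markers at most 1.98, with *Ins2* and *Gcg* at 0. Of the Kupffer cell markers, edgeR called none of 12, against 2 at an unadjusted p under 0.05, 1 by DESeq2 and 0 by limma-voom. Of the sinusoidal endothelial markers 5 of 12 were called, all higher (median 0.19). Of the stellate markers 3 were called higher, among them the growth factor gene *Hgf* (0.74), and 2 lower, among them the collagen gene *Col1a1* (-1.51). With only the higher-numbered fasted mice *Col1a1* stood at -1.34 and was not called (adjusted p = 0.0537, edgeR). *Col1a1* was likewise not called without the 3 mice with raised acute-phase RNA described next (-1.05, adjusted p = 0.0872, edgeR). In bulk liver, fewer cells of a type and less RNA per cell cannot be told apart. Bile duct markers had 2 of 7 called lower (median -0.47), lymphocyte markers 2 of 7 called higher (median 0.90), red blood cell markers 1 of 5 called lower, and hepatocyte markers 1 higher and 3 lower of 10. Without the same 3 mice 1 bile duct marker was called lower (median -0.10), 1 lymphocyte marker higher (median 0.59), and hepatocyte markers 1 higher and 1 lower; with only the lower-numbered fasted mice 2 sinusoidal endothelial markers were called higher, and 1 stellate marker higher and 2 lower. None of 3 neutrophil, 2 adipocyte and 1 skeletal muscle marker tested was called by edgeR; at an unadjusted p under 0.05 and by DESeq2 the count was 0 as well, and limma-voom called 1 of the adipocyte markers.

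Library measures did not separate the groups. By exact permutation tests, two-sided, adjusted over 4 measures, total counts (adjusted p = 0.903), the number of genes with a count, the share of counts on the 10 most abundant genes and the share on mitochondrially encoded messenger RNAs (adjusted p = 0.554 for each of these 3) did not differ beyond the spread between mice. The last of these shares ran from 2.85% to 3.31% in fed and from 2.65% to 3.67% in fasted mice. Between 3 mice and the others, however, a difference was seen within the groups: the summed CPM of 35 acute-phase genes was 95970 in ALC_WT_847, 83176 in ALC_WT_849 and 64937 in ONF_WT_807, against 39457 to 46010 in the other fed and 31672 to 33424 in the other fasted mice. Without these 3 mice, a choice made after seeing the data, 3522 genes were called (1567 higher and 1955 lower), 790 of them changed at least 2-fold.

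Fatty acid oxidation was the most uniformly raised of the lists described here. Of 37 genes tested, 34 were called, all higher, with a median log2 fold change of 1.07 against 0.01 over all genes, and 21 rose at least 2-fold. *Cpt1a*, which encodes the enzyme that admits long-chain fatty acids to mitochondria, was at 295 to 349 CPM in fed mice (median 306) and at 864 to 1053 in fasted mice (median 941). Every fasted mouse lay well above every fed mouse, and the log2 fold change was 1.60 (SE 0.11, adjusted p = 3.9e-14, edgeR). Per length, its mean rose from 40.97 to 124 CPM per kilobase of exon (RPKM). After 6 h of refeeding its median was 515 CPM, between the fed and the fasted level. *Crot*, the peroxisomal carnitine octanoyltransferase, ran from 517 to 751 CPM in fed mice (median 561) and from 1572 to 2407 in fasted mice (median 1814), without overlap (log2 fold change 1.67, SE 0.10, adjusted p = 7.1e-15, edgeR). *Slc22a5*, the plasma membrane carnitine transporter, had fed and fasted medians of 14.2 and 84.7 CPM and the largest rise of these 3. *Hadhb*, the beta subunit of the mitochondrial trifunctional protein that carries out the last steps of the cycle, rose by 1.22 (SE 0.09), and *Fabp1*, the main fatty acid-binding protein of liver, by 0.63 (SE 0.16); *Fabp1* was not called with only the lower-numbered fasted mice (0.45, adjusted p = 0.0913, edgeR).

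Of 10 genes of ketone body production 6 were called higher and 2 lower (median 0.91). *Slc16a1*, a monocarboxylate carrier through which ketone bodies can leave the cell, was at 65.8 to 81.7 CPM in fed mice (median 74.8) and at 141 to 211 in fasted mice (median 164), a log2 fold change of 1.20 (SE 0.10, adjusted p = 1.7e-11, edgeR). *Aacs*, which activates acetoacetate in the cytosol for lipid synthesis, ran from 43.1 to 244 CPM in fed mice (median 114) and from 8.15 to 13.6 in fasted mice (median 11.03), a log2 fold change of -3.63 (SE 0.52, adjusted p = 2.0e-06, edgeR).

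The acyl-CoA thioesterases and Cyp4 hydroxylases gave some of the steepest rises. Cyp4 enzymes start the omega-oxidation of fatty acids and the thioesterases release free fatty acids from coenzyme A. Of 21 such genes 11 were called higher and 3 lower (median 0.59). *Cyp4a14* (ENSMUSG00000028715, chromosome 4) ran from 17.1 to 148 CPM in fed mice, with a median of 28.99, and from 3719.8 to 4989 in fasted mice, with a median of 4489. The highest fed mouse, ALC_WT_856, stood apart from the other fed mice, which did not exceed 37.6 CPM, and still lay far under every fasted mouse. The log2 fold change was 6.58 (SE 0.53, adjusted p = 3.6e-11, edgeR) and 7.40 without ALC_WT_856, and refed mice kept a median of 4864 CPM. *Cyp4a10* changed by 5.52 (SE 0.47), from a median of 39.8 to 2224 CPM, and ALC_WT_856 was again the highest fed mouse at 110.1 CPM. *Cyp4a31* rose by 3.91 from low fed levels. The thioesterase genes *Acot1* (4.48), *Acot2* (4.24) and *Acot3* (6.23), which lie in a cluster of near-identical sequence, rose to fasted medians of 126, 37.5 and 129 CPM, and *Acot12*, a cytosolic acetyl-CoA hydrolase, rose by 1.31. *Cyp4f14*, which hydroxylates leukotrienes among other substrates, went the other way, with a log2 fold change of -1.05. Because reads of 50 bases may be split between close paralogs, single Cyp4a and Acot values are uncertain; *Acot3* and *Acot12* also overlap genes on the opposite strand, and the use of strand in counting was not stated.

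*Vnn1*, a pantetheinase, ran from 16.0 to 32.6 CPM in fed mice and from 176 to 267 in fasted mice (log2 fold change 3.46), and *Abcd2*, a peroxisomal transporter of very long-chain acyl-CoA, rose by 3.35 (SE 0.66). *Fgf21*, the fasting hormone of liver, was near the floor of detection in fed mice at 0.245 to 0.741 CPM (median 0.423) and at 6.75 to 13.1 in fasted mice (median 11.3). No fasted mouse came near the fed range, and the log2 fold change was 4.53 with a wide SE of 0.96 (adjusted p = 0.000469, edgeR). *Ppara* itself moved less, from between 123.1 and 171 CPM (median 153) to between 215 and 285 (median 237), a log2 fold change of 0.70 (SE 0.10). Of 31 metabolic nuclear receptors and partners, 7 were called higher and 3 lower (median 0.14). Among these *Nr1i3*, the xenobiotic receptor CAR, rose by 1.86 from a median of 61.6 to 220.4 CPM, though it overlaps *Tomm40l* on the other strand.

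Of 22 lipid droplet genes 12 were called higher and 3 lower (median 0.87). *Plin2*, the main droplet coat protein of hepatocytes, was at 306 to 414 CPM in fed mice (median 383) and at 1074 to 1509.9 in fasted mice (median 1186), with a log2 fold change of 1.76 (SE 0.12, adjusted p = 2.7e-14, edgeR). Fed and fasted mice were far apart, and refed mice had a median of 353 CPM. *Plin4*, a further perilipin that overlaps *Hdgfl2* on the other strand, rose by 3.05, *Pnpla2*, the triglyceride lipase ATGL, by 1.04 and *Vldlr*, a lipoprotein receptor that also belongs to the amino acid stress list, by 2.80. *Lpin1*, which makes diacylglycerol and coactivates *Ppara*, fell by contrast, with a log2 fold change of -2.69. Its fed values were spread from 45.8 to 652 CPM, the highest being ALC_WT_860, while fasted mice lay between 22.8 and 37.1, and without that mouse the log2 fold change was -1.78.

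**Figure D2:**
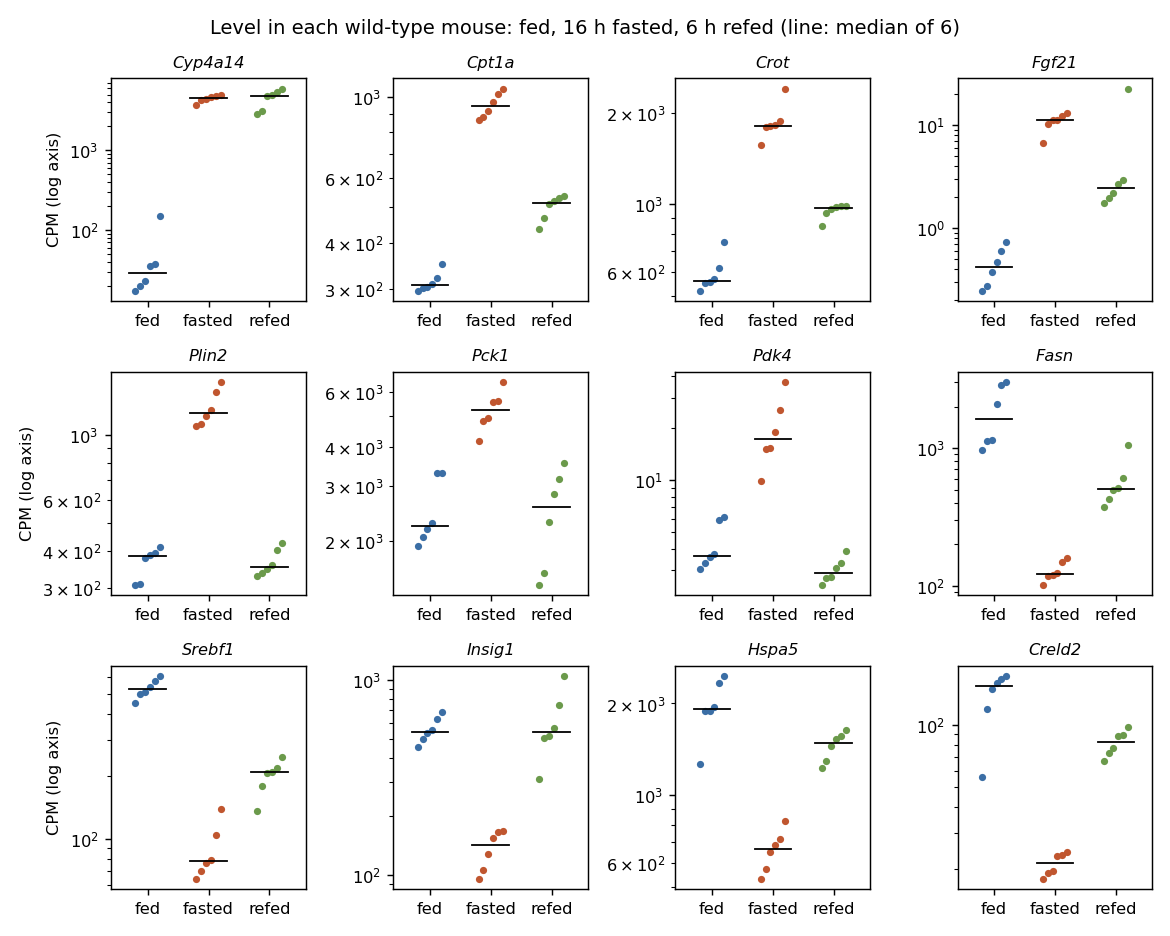
Level of 12 genes in each wild-type mouse (CPM, log axis), 6 fed in blue, 6 fasted in orange and 6 refed in green, with mice placed in order of value and a line at each median. Fasted and fed mice do not overlap in any of the 12 genes, whereas refed mice lie at the fasted level for *Cyp4a14* and at the fed level for *Plin2* and *Insig1*.

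The plot of single mice sets these oxidation genes beside those of glucose and lipid metabolism, for which the fasting response was mixed. Of 26 genes of gluconeogenesis 16 were called higher and 2 lower (median 0.47), or 10 and 2 with only the lower-numbered fasted mice. *Pck1*, the cytosolic phosphoenolpyruvate carboxykinase, had a fed range of 1925 to 3308 CPM (median 2228) and a fasted range of 4159.7 to 6418 (median 5248), without overlap. Genes that bring substrate into the pathway rose too: *Gk*, glycerol kinase (1.53), *Ldha*, lactate dehydrogenase A (1.01), and *Mpc1* and *Mpc2*, the mitochondrial pyruvate carrier (0.65 and 0.61). *Gk* and *Mpc1* overlap genes on the opposite strand. *Fbp1*, fructose-1,6-bisphosphatase, rose by 0.52 (SE 0.12), but not past the threshold with only the lower-numbered fasted mice (0.38, adjusted p = 0.0656, edgeR). *G6pc*, the phosphatase that releases glucose, was not called: its fed mice ran from 100.2 to 1604 CPM (median 539) and its fasted mice from 389 to 612 (median 502). The fed group was far wider than the fasted one and enclosed it, with ALC_WT_860 highest at 1604 CPM and the other fed mice at or under 656. The log2 fold change was -0.30 (SE 0.46, adjusted p = 0.667, edgeR), 0.25 without ALC_WT_860 (adjusted p = 0.720) and 0.14 by limma-voom (adjusted p = 0.861), so its sign was not settled.

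Of 24 genes of glucose use and glycolysis 9 were called lower and 2 higher (median -0.12), with 5 lower in either series of fasted mice alone. *Pdk4*, which blocks pyruvate dehydrogenase, rose from between 3.07 and 6.12 CPM (median 3.65) to between 9.95 and 36.9 (median 17.3), a log2 fold change of 2.25 (SE 0.32, adjusted p = 1.6e-06, edgeR), while *Pdhb*, a subunit of that dehydrogenase, fell (-0.80). *Pfkfb1* and *Pfkfb2*, the bifunctional enzymes that set fructose-2,6-bisphosphate, had log2 fold changes of -0.94 and -0.35. The smaller of these, that of *Pfkfb2*, was not called without the 3 mice with high acute-phase RNA (-0.24, adjusted p = 0.158, edgeR) or with either series of fasted mice alone (-0.36 with the lower-numbered, -0.35 with the higher-numbered), and each gene overlaps another on the opposite strand (*Apex2* and *Yod1*). Of 18 glycogen genes 4 were called higher and 6 lower (median -0.11), among them *Pygl*, liver glycogen phosphorylase (-0.95), and *Ppp1r3c*, a subunit that steers protein phosphatase to glycogen (0.89).

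Of 35 genes of insulin signalling 5 were called higher and 8 lower (median -0.08), shares not far from those of all genes, and 3 and 7 with only the lower-numbered fasted mice. *Pik3r1*, which encodes the regulatory subunits of phosphoinositide 3-kinase, was at 119 to 158 CPM in fed mice (median 132) and at 82.4 to 106 in fasted mice (median 94.3), a log2 fold change of -0.53 (SE 0.10, adjusted p = 6.6e-05, edgeR). Its relative *Pik3r3* (-1.34) and the adaptor *Grb10*, which dampens receptor signalling (-0.87), fell as well. *Trib3*, a pseudokinase that binds Akt, rose from between 2.81 and 4.98 CPM to between 6.87 and 20.2 (log2 fold change 1.66, SE 0.42), though not past the threshold with only the lower-numbered series (1.21, adjusted p = 0.0882, edgeR). *Irs2*, the insulin receptor substrate most used by liver, ran from 8.27 to 20.1 CPM in fed and from 11.6 to 23.6 in fasted mice and was not called (0.42, adjusted p = 0.266, edgeR). Glucocorticoid targets were called higher for 4 and lower for 3 of 24 genes (median 0.25), not far from the shares of all genes (14.5% and 17.5%). *Gadd45b*, a stress-induced signalling protein, rose by 2.29 (SE 0.41), and by 1.68 without the 3 mice with high acute-phase RNA.

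Secreted hormones and their binding proteins were called higher for 9 and lower for 2 of 27 genes (median 0.25), for 4 and 2 with only the lower-numbered fasted mice, and the activins diverged. *Inhbe*, which encodes the liver-specific activin E subunit, ran from 27.5 to 47.0 CPM in fed mice and from 92.1 to 132 in fasted mice (log2 fold change 1.51), whereas *Inhba*, for activin A, fell from between 4.67 and 7.54 CPM to between 1.38 and 2.86 (-1.52). *Igf1*, the growth factor released under growth hormone, was at 433 to 522 CPM in fed and 403 to 529 in fasted mice, so its groups overlapped almost fully (log2 fold change -0.06, adjusted p = 0.634, edgeR). Of 13 growth hormone signalling genes 2 were called higher and 2 lower (median 0.00), not far from the shares of all genes (14.5% and 17.5%). With only the higher-numbered fasted mice 1 of 13 was called, and it was lower. *Igfbp1*, an insulin-repressed binding protein, had a fed median of 15.5 CPM and a fasted median of 49.5, with fasted mice between 30.02 and 71.1. ALC_WT_860 reached 127 CPM while the other fed mice did not exceed 31.8, and the gene was not called (0.42, SE 0.67, adjusted p = 0.685, edgeR), nor without that mouse (1.43, adjusted p = 0.106).

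Of 27 genes of fatty acid synthesis 15 were called lower and 4 higher (median -0.75). *Srebf1*, which encodes the transcription factor Srebp1 (ENSMUSG00000020538, chromosome 11), was at 451 to 608 CPM in fed mice (median 526) and at 64.3 to 139 in fasted mice (median 78.0), with a log2 fold change of -2.58 (SE 0.20, adjusted p = 5.8e-12, edgeR). *Fasn*, fatty acid synthase, fell from between 961 and 3006 CPM (median 1616) to between 101 and 158 (median 121), a log2 fold change of -3.87 (SE 0.39). Fed mice varied widely for this gene but each lay above all fasted mice, and refed mice reached a median of 504.4 CPM. *Thrsp*, a lipogenic regulator also called Spot 14, fell most, from a median of 589 to 14.01 CPM (log2 fold change -5.83), and its relative *Mid1ip1* fell by a log2 fold change of -2.35. *Srebf1* and *Mid1ip1* each overlap a gene on the opposite strand. *Acaca*, acetyl-CoA carboxylase 1, changed by -1.94. *Elovl5*, which lengthens polyunsaturated fatty acids, was among the 4 that rose, from between 177 and 473 CPM in fed to between 813 and 1084 in fasted mice (log2 fold change 1.79).

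The cholesterol pathway was lower almost throughout. Of 26 genes of cholesterol synthesis and uptake 22 were called lower and 1 higher, and their median of -1.74 was the lowest of the lists of more than 10 tested genes. *Fdps*, farnesyl diphosphate synthase, ran from 144 to 232 CPM in fed mice (median 175) and from 13.03 to 19.45 in fasted mice (median 17.1), a log2 fold change of -3.43 (SE 0.45, adjusted p = 5.8e-07, edgeR). Every fasted mouse was far under every fed one, and refed mice had a median of 136 CPM. *Sqle*, squalene epoxidase, chosen after its values were seen, fell from a median of 85.7 to 10.6 CPM (-3.15). Both Insig genes encode proteins that hold the Srebp precursors in the endoplasmic reticulum, but they moved in opposite directions. *Insig1* fell from between 456 and 684 CPM to between 95.3 and 167 (-2.04), while *Insig2* rose from between 119 and 234 to between 414 and 498 (1.25) and was the 1 member called higher.

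**Figure D3:**
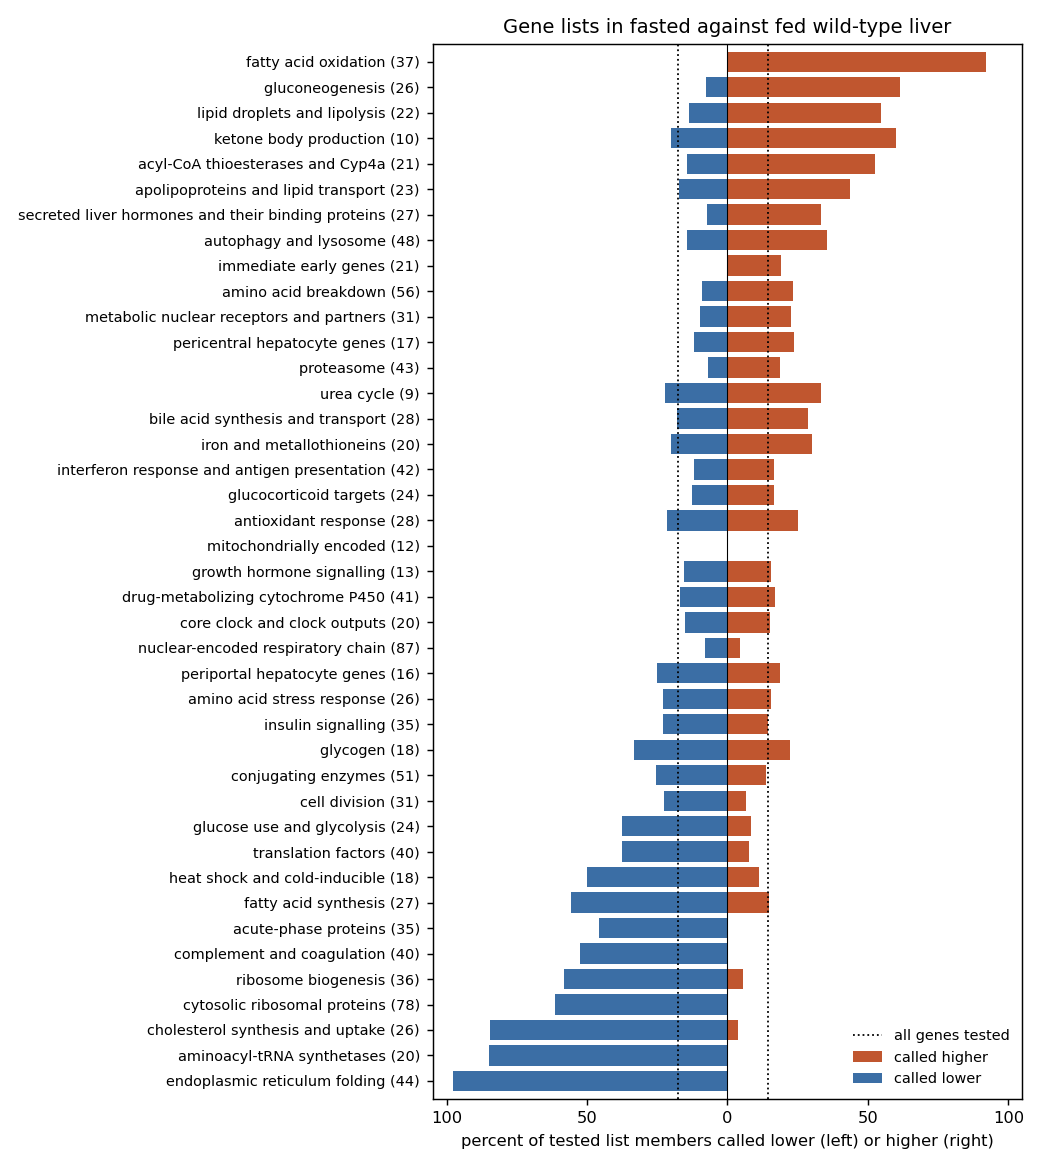
Percent of the tested members of each gene list (number tested in parentheses) that were called lower (blue, to the left) or higher (orange, to the right) in fasted against fed wild-type mice, with dotted lines at the shares over all genes tested, 17.5% and 14.5%. Fatty acid oxidation stands at one end and endoplasmic reticulum folding at the other, with 34 of 37 called higher and 43 of 44 called lower.

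In the plot of gene lists, the end opposite fatty acid oxidation is held by the protein folding machinery of the endoplasmic reticulum. Of 44 genes tested 43 were called, all lower, 20 of them at least 2-fold, with a median log2 fold change of -0.94. *Hspa5*, the chaperone BiP (ENSMUSG00000026864, chromosome 2), was at 1262 to 2459.5 CPM in fed mice (median 1924) and at 531 to 822 in fasted mice (median 667), with a log2 fold change of -1.57 (SE 0.21, adjusted p = 2.6e-07, edgeR). *Creld2*, a folding factor of the same compartment, ran from 55.8 to 171 CPM in fed mice (median 153) and from 18.03 to 24.3 in fasted mice (median 21.5), a log2 fold change of -2.68 (SE 0.30). Fasted mice lay below all fed mice for both genes, and refed medians were in between, at 1486 and 82.4 CPM. *Sdf2l1* (-3.09) and *Hyou1* (-2.10), chaperone partners of BiP chosen after their values were seen, fell further than BiP itself. Lower levels also reached the machinery that brings proteins into the compartment, as in *Ssr1*, a subunit of the translocon-associated complex (-1.14), *Sec61b*, a subunit of the channel (-1.26), and *Tram1*, a helper of that channel (-0.94), and to the disposal of misfolded proteins, as in *Edem1*, a lectin that selects them (-1.02). With either series of fasted mice alone, 42 (lower-numbered) and 41 (higher-numbered) of 44 were called, all lower.

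Promoter sequences of these genes were searched for a known element. The endoplasmic reticulum stress element (ERSE), read here as CCAAT, any 9 bases and CCACG on either strand, is known as a binding sequence of NF-Y and of the stress-activated transcription factors Atf6 and Xbp1. It was searched for from 250 bases before to 50 bases after each RefSeq start site (build GRCm38.p6), for the 10457 tested genes (75.0%) that had such a sequence. It occurred in 17 of them (0.163%), in 11 of 1859 called lower (0.592%), in 8 of 305 called at least 2-fold lower (2.62%), in 0 of 1555 called higher, and in 9 of 34 endoplasmic reticulum folding genes (26.5%). All 9 folding genes are among the 11 called lower, so these shares partly count the same promoters. The list was written from general knowledge with earlier results known, so its share is a description and was not tested. These 9 are given with 20 bases on each side of the element because they are the members of the list in which it was found. Capitals mark the parts of the element given above, which read ATTGG and CGTGG where it lies on the other strand, and each sequence runs 5′ to 3′ along the strand of its gene.
*Hspa5*, chr2:34772005-34772063, plus strand: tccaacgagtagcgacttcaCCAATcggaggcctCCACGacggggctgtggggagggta
*Creld2*, chr15:88819500-88819558, plus strand: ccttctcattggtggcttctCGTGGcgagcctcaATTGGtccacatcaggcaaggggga
*Pdia6*, chr12:17266471-17266529, plus strand: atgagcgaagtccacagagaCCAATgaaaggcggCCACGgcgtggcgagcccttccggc
*Dnajc3*, chr14:118937807-118937865, plus strand: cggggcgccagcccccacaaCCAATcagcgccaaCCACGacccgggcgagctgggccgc
*Syvn1*, chr19:6046512-6046570, plus strand: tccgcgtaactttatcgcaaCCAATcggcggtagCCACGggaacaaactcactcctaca
*Derl3*, chr10:75893222-75893280, plus strand: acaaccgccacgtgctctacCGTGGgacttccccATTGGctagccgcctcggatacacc
*Calr*, chr8:84847055-84847113, minus strand: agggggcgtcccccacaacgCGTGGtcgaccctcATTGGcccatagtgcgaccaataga
*Canx*, chr11:50325780-50325838, minus strand: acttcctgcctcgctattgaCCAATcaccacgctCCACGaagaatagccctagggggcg
*Hsp90b1*, distal copy, chr10:86705618-86705676, minus strand: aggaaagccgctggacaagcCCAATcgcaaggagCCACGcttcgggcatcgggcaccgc
*Hsp90b1*, proximal copy, chr10:86705513-86705571, minus strand: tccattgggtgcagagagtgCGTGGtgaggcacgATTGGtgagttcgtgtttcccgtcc

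Besides *Hspa5* and *Creld2*, the other 7 of these genes were called lower too. *Pdia6*, a protein disulfide isomerase, fell by 1.63 on the log2 scale, *Syvn1*, a ubiquitin ligase for misfolded proteins, by 1.45, *Calr*, the lectin chaperone calreticulin, by 1.29, *Hsp90b1*, the Hsp90 of this compartment, by 1.25, *Dnajc3*, a cochaperone of BiP, by 0.87 and *Canx*, the membrane-bound partner of calreticulin, by 0.58. *Syvn1* and *Hsp90b1* overlap other genes, and their values are uncertain for this reason. *Derl3*, which takes part in returning misfolded proteins to the cytosol, ran from 1.82 to 13.5 CPM in fed and from 0.116 to 4.77 in fasted mice, so the groups overlapped, ONF_WT_807 being the highest fasted mouse. Its log2 fold change of -2.34 (SE 0.66, adjusted p = 0.00659, edgeR) was not called with only the lower-numbered fasted mice (-1.94, adjusted p = 0.107) and was -3.12 without ONF_WT_807. Outside the list the element was also found in *Acacb*, acetyl-CoA carboxylase 2, and *Alg12*, a mannosyltransferase of N-glycan assembly, both called lower, and in *Acnat2*, *Adcy3*, *Hnrnpa3*, *Pan2*, *Spats2l* and *Xlr3a*, which were not called. A match is a description of letters and not a site shown to be bound, and its absence elsewhere says only that these letters are not in this window.

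The same windows were read for other elements. The cyclic AMP response element TGACGTCA was in 3.39% of all promoters, in 3.86% of those of genes called higher, 2.74% of those called lower, 2.22% of those called at least 2-fold higher and 1.64% of those called at least 2-fold lower. In the same order these shares were 1.44%, 1.41%, 1.72%, 2.59% and 2.95% for the sterol element TCACNCCAC, 11.6%, 12.3%, 12.6%, 12.6% and 8.20% for the E-box CACGTG, and 0.889%, 0.90%, 0.861%, 0.741% and 0.984% for the D-box, TTACGTAA or TTATGTAA. Of fatty acid oxidation genes 3 of 31 (9.68%) held the sterol element, and of cholesterol genes 1 of 18. The direct repeat bound by *Ppara* with its partner, 2 exact copies of AGGTCA separated by 1 base, was in 6 of 10457 promoters (0.0574%), none of them of a gene called higher and 3 of them of genes called lower (0.161% of 1859). Some promoters held more than 1 element: of the folding genes with the ERSE, *Calr* and *Derl3* also held the E-box and *Hsp90b1* the sterol element.

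Lists of protein synthesis genes had smaller medians. Of 20 aminoacyl-tRNA synthetases, which load amino acids onto tRNA, 17 were called, all lower (median -0.37), among them *Yars*, the enzyme for tyrosine, which overlaps an antisense gene (-0.61). Ribosome biogenesis genes were called lower for 21 and higher for 2 of 36 (median -0.28), as in *Utp20*, a factor that processes ribosomal RNA (-0.77); the number lower was 13 without the 3 mice with high acute-phase RNA, 11 with only the lower-numbered fasted mice and 16 with only the higher-numbered ones. Translation factors were called lower for 15 and higher for 3 of 40 (median -0.10), with *Eif4b*, an initiation factor downstream of mTOR, among the 3 (0.43); without the 3 mice with high acute-phase RNA 7 were lower and 2 higher. Of 78 cytosolic ribosomal protein genes 48 were called, all lower (median -0.25). *Rpl12* (-0.69), *Rpsa* (-0.55) and *Rplp0* (-0.41) were among them, and in *Rplp0* fed mice ran from 219 to 244 CPM and fasted mice from 155 to 182. The number of ribosomal proteins called lower was 50 with only the lower-numbered fasted mice, 16 with only the higher-numbered ones, and 27 without the 3 mice with high acute-phase RNA. Ribosomal protein genes have processed pseudogenes and *Rpl12* overlaps *Lrsam1* on the other strand, so single values are uncertain. Of 87 nuclear-encoded genes of the respiratory chain 4 were called higher and 7 lower (median -0.01); without the 3 mice, and likewise with only the lower-numbered fasted mice, 6 of 87 were called, all lower, and with only the higher-numbered ones 5 were higher and 2 lower. Of the 12 mitochondrially encoded messenger RNAs edgeR called none, against 3 at an unadjusted p under 0.05, and DESeq2 and limma-voom called none; 1 was called higher without the 3 mice.

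Of 61 small nucleolar RNA genes tested 30 were called lower and 1 higher, and of 7 small nuclear RNA genes 6 were called lower, against 17.5% lower and 14.5% higher of all genes. *Rpph1*, the RNA of ribonuclease P, ran from 1526 to 2519 CPM in fed mice and from 981 to 1226 in fasted mice (log2 fold change -0.77), with ALC_WT_850 as the highest fed mouse. *Rmrp*, the RNA of the related mitochondrial RNA-processing ribonuclease, which overlaps *Ccdc107*, fell too (-0.87). Such short RNAs are recovered unevenly by this kind of library, and what library preparation contributed to their levels was not tested.

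Among genes of plasma proteins, acute-phase, complement and lipid transport lists were read. Of 35 acute-phase genes 16 were called, all lower (median -0.61), but this list rested partly on the 3 mice named above. *Saa1* and *Saa2*, the inducible serum amyloids, chosen after their values were seen, were highest in ALC_WT_847 and ALC_WT_849 and, among fasted mice, in ONF_WT_807. *Saa1* ran from 236 to 3994 CPM in fed mice (median 972), and ONF_WT_807 had 1663 CPM while the other fasted mice had 15.5 to 29.3. For *Saa2* the fed range was 118 to 4766 CPM, with ONF_WT_807 at 1130.0 and the other fasted mice at 7.46 to 21.4. Neither gene was called by edgeR (*Saa1* -2.49, adjusted p = 0.121; *Saa2* -3.17, adjusted p = 0.0524), whereas without ONF_WT_807 both were (-6.33 and -7.10, adjusted p = 0.000275 and 0.000102). *Saa2* also passed without ALC_WT_848 (-3.38), ALC_WT_850 (-3.41) or ALC_WT_860 (-3.40) and by DESeq2 (-3.18, adjusted p = 0.0109), and limma-voom called both. The Saa genes have close paralogs, so counts may be split between them. *Lcn2*, which encodes lipocalin 2 and was also chosen after its values were seen, fell by a log2 fold change of -3.96 (adjusted p = 0.0140, edgeR) and was not called without ALC_WT_847 (-3.13, adjusted p = 0.0512), without all 3 mice (-3.57, adjusted p = 0.0546) or with only the lower-numbered fasted mice (-3.12, adjusted p = 0.171); without ONF_WT_807 it stood at -5.78. Members whose fed and fasted mice did not overlap were *Steap4*, a metalloreductase (-2.92, and -1.90 without the 3 mice), *Saa4*, the constitutive serum amyloid (-1.76), *Il1r1*, the interleukin 1 receptor (-1.80), and *C9*, the last component of complement (-1.24). Without the 3 mice 12 acute-phase genes were called lower and 3 higher, and the number called lower was 5 with only the lower-numbered and 19 with only the higher-numbered fasted mice.

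**Figure D4:**
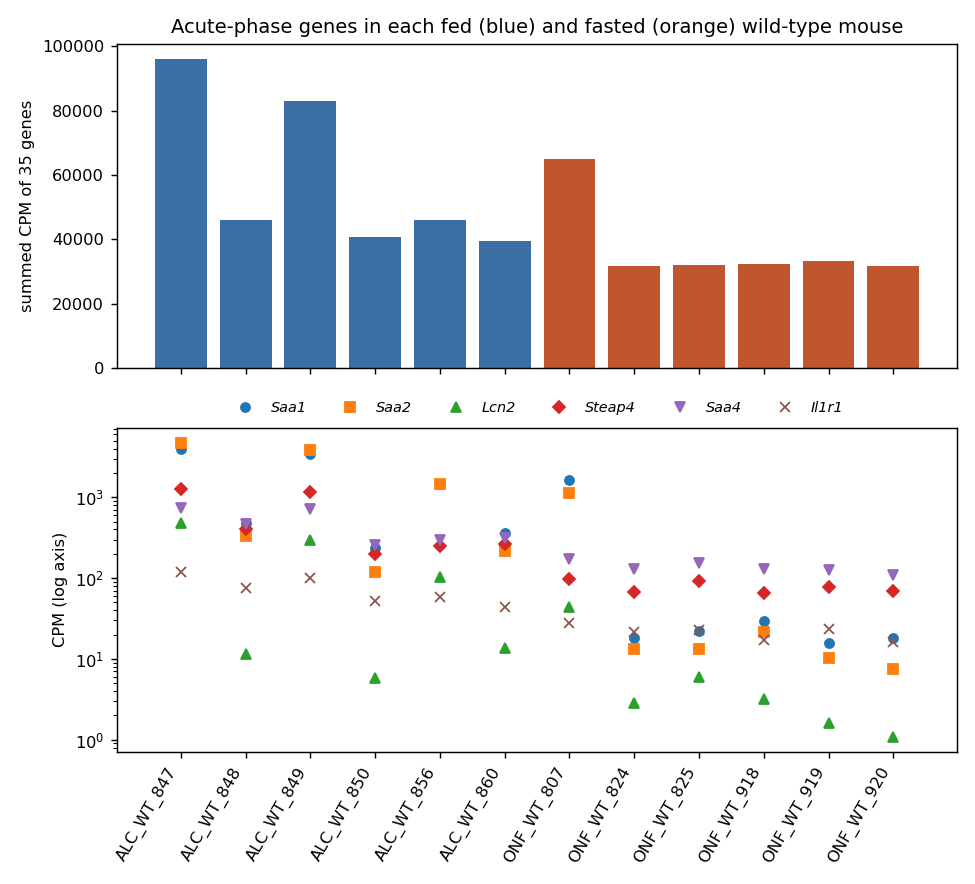
Summed CPM of 35 acute-phase genes in each fed (blue) and fasted (orange) wild-type mouse, above the CPM of 6 of these genes in the same mice (log axis). ALC_WT_847, ALC_WT_849 and ONF_WT_807 stand above the rest of their groups in the sum, at 95970, 83176 and 64937.

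The plot of acute-phase genes by mouse shows that *Saa4*, *Steap4* and *Il1r1* separated fed from fasted mice also among those with low sums. Complement and coagulation genes followed, with 21 of 40 called, all lower (median -0.28). *F11*, coagulation factor XI, was at 70.0 to 92.2 CPM in fed mice and at 17.8 to 47.4 in fasted mice (log2 fold change -1.48), and *C8b*, a subunit of the membrane attack complex, changed by -1.26. *Mup20*, the major urinary protein darcin, fell from between 3608 and 6486 CPM to between 1006 and 3352 (-1.18). Of the protease inhibitors, *Serpina1e* fell from a median of 5183 to 1368 CPM (-1.85) and *Serpina3k* from 13248 to 8753 (-0.64). Mup and Serpina genes form families of near-identical copies and *Serpina3k* overlaps *Serpina3m*, so these values are uncertain. Of 23 apolipoprotein and lipid transport genes 10 were called higher and 4 lower (median 0.28), or 6 and 3 with only the lower-numbered fasted mice. *Apoe*, the ligand that clears remnant particles, had means of 5809 RPKM in fed and 7468 RPKM in fasted mice (log2 fold change 0.36). *Apoa5*, which promotes triglyceride clearance, rose by 0.91, and *Abca1*, the exporter of cholesterol to apolipoprotein A-I, fell (-1.04).

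Lists of amino acid metabolism had medians near 0. Of 56 genes of amino acid breakdown 13 were called higher and 5 lower (median 0.09), 8 and 6 without the 3 mice with high acute-phase RNA and 7 and 6 with only the lower-numbered fasted mice. *Mat1a*, which makes S-adenosylmethionine, rose from between 1824 and 2792 CPM (median 2345) to between 5642 and 8407 (median 7308), a log2 fold change of 1.63 (SE 0.16, adjusted p = 1.5e-10, edgeR). Fed and fasted mice were far apart for this gene, and its mean went from 667 to 2063 RPKM. *Oat*, ornithine aminotransferase, rose by 1.39 (SE 0.17), and *Ido2*, which opens the tryptophan ring, fell (-1.03). Urea cycle genes were called higher for 3 and lower for 2 of 9 (median -0.06), and for 1 and 2 with only the lower-numbered fasted mice. *Cps1*, the carbamoyl phosphate synthetase that starts the cycle, fell from a median of 7109 to 4306 CPM (-0.70), whereas *Slc25a22*, a mitochondrial glutamate carrier, rose by 1.28. The amino acid stress list was called higher for 4 and lower for 6 of 26 genes (median -0.14), of which 3 and 4 changed at least 2-fold. Without the 3 mice with high acute-phase RNA 4 were higher and 1 lower. With only the lower-numbered fasted mice 2 were higher and 2 lower, and with only the higher-numbered ones 5 and 2. *Atf5*, a transcription factor of this response that overlaps *Il4i1* on the other strand, rose by 1.31, against the direction of the median of the list.

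Protein and organelle turnover was mixed. Of 48 autophagy and lysosome genes 17 were called higher and 7 lower (median 0.08). *Gabarapl1*, which couples cargo to autophagosomes, rose from between 198 and 259 CPM to between 380.0 and 459 (0.89), and *Bnip3*, a receptor for mitochondria to be degraded, rose by 1.01, while *Atg13*, part of the initiating kinase complex, fell (-0.73). Proteasome genes were called higher for 8 and lower for 3 of 43 (median 0.02), and for 2 and 1 with only the lower-numbered fasted mice. Antioxidant genes were called higher for 7 and lower for 6 of 28 (median 0.07), among the latter *Pgd* of the pentose phosphate pathway (-1.04), and for 4 and 4 with only the higher-numbered fasted mice. Heat shock genes were lower for 9 of 18 and higher for 2 (median -0.29). *Hsp90aa1*, an inducible cytosolic chaperone, fell from a median of 244 to 127 CPM (-0.93), while 1 of the 2 that rose was *Cirbp*, which is induced by mild cold (1.20), from between 5.27 and 9.38 CPM in fed to between 14.5 and 23.5 in fasted mice.

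Of 28 genes of bile acid metabolism 8 were called higher and 5 lower (median 0.13), or 5 and 5 with only the lower-numbered fasted mice. *Cyp8b1*, the sterol 12-alpha-hydroxylase that sets cholic acid production, rose from between 116 and 276 CPM (median 217) to between 621 and 932 (median 715), a log2 fold change of 1.90 (SE 0.29). *Cyp2c70*, which makes the muricholic acids of rodents, ran the other way, from between 676 and 1086 CPM (median 761) to between 38.5 and 145 (median 72.8), with a log2 fold change of -3.40 (SE 0.26, adjusted p = 7.7e-12, edgeR). *Cyp7a1*, the rate-limiting enzyme, had overlapping fed and fasted ranges of 77.8 to 182 and 65.0 to 117 CPM and was not called (-0.52, adjusted p = 0.266, edgeR). Canalicular export was divided as well: *Abcb4*, the phospholipid exporter, rose by 1.32, and *Abcb11*, the bile salt pump, fell (-0.98), although the latter overlaps an antisense gene.

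Detoxifying enzymes were read in a pair of lists. Drug-metabolizing cytochrome P450 genes were called higher for 7 and lower for 7 of 41 (median 0.11), near the background, and for 7 and 4 with only the lower-numbered fasted mice. *Cyp2e1*, which oxidises ethanol and acetone, had fasted values of 7658 to 9950.2 CPM above fed values of 3953 to 4911 (log2 fold change 0.91). *Cyp2b9* was at 0 to 0.171 CPM in fed mice and at 1.61 to 75.0 in fasted mice (median 13.7), with ONF_WT_825 the highest and the other fasted mice at or below 18.5. Its log2 fold change of 7.84 (SE 1.62, adjusted p = 0.000336, edgeR) rests on at most a few counts per fed mouse and was 6.83 without ONF_WT_825, and the Cyp2b genes are close paralogs. Conjugating enzymes were called higher for 7 and lower for 13 of 51 (median -0.09), and for 6 and 8 with only the higher-numbered fasted mice. *Ugt2b37*, a glucuronosyltransferase with close paralogs, changed by -2.65, and by -3.25 without the 3 mice with high acute-phase RNA. *Hsd3b5*, a male-enriched steroid dehydrogenase of mouse liver, ran from 176 to 239.5 CPM in fed mice and from 2.91 to 47.7 in fasted mice (log2 fold change -3.46, SE 0.58). Its fasted mice split by mouse number, 2.91 to 5.40 CPM in the lower-numbered and 25.98 to 47.7 in the higher-numbered series, with log2 fold changes of -5.60 and -2.64 against fed mice.

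Iron genes were called higher for 6 and lower for 4 of 20 (median 0.10). *Tfrc*, the transferrin receptor, fell from between 43.0 and 82.0 CPM to between 22.5 and 37.98 (-1.11), and *Slc40a1*, the iron exporter ferroportin, rose (0.66). Position along the lobule gave no common direction. Of 16 periportal genes 3 were called higher and 4 lower (median -0.08), with *Cdh1*, the adhesion protein E-cadherin, falling from between 72.1 and 96.2 CPM to between 9.19 and 29.6 (-2.12), and of 17 pericentral genes 4 were called higher and 2 lower (median -0.06); without the 3 mice with high acute-phase RNA, and with either series of fasted mice alone, 3 of 17 were called, all higher.

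Clock genes drive daily rhythms of liver metabolism, and here they divided the fasted mice by mouse number. Of 20 clock genes and outputs 3 were called higher and 3 lower (median -0.10), not far from the shares of all genes (14.5% and 17.5%). Without the 3 mice with high acute-phase RNA 1 was higher and 2 lower. In 15 of the 20, however, the 3 lower-numbered fasted mice did not overlap with the 3 higher-numbered ones, as in 2359 of all 13945 genes (16.9%). With only the lower-numbered fasted mice 11 were called against fed mice, 3 higher and 8 lower, where 21% of all genes were called. With only the higher-numbered ones, where 22.4% of all genes were called, edgeR called 0 of the 20, against 4 at an unadjusted p under 0.05, and other tools were not run on this split. *Arntl*, which encodes the activator Bmal1, was at 3.23 to 10.8 CPM in fed mice, at 17.6 to 24.3 in the lower-numbered and at 6.65 to 10.7 in the higher-numbered fasted mice. The last 2 ranges lie above and within the fed range, and the log2 fold change was 1.28 over all 6 fasted mice (SE 0.39, adjusted p = 0.0112, edgeR), 1.78 with the lower-numbered (adjusted p = 0.00250) and 0.51 with the higher-numbered ones (adjusted p = 0.457). Without the 3 mice with high acute-phase RNA *Arntl* was not called (1.13, adjusted p = 0.0792, edgeR).

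**Figure D5:**
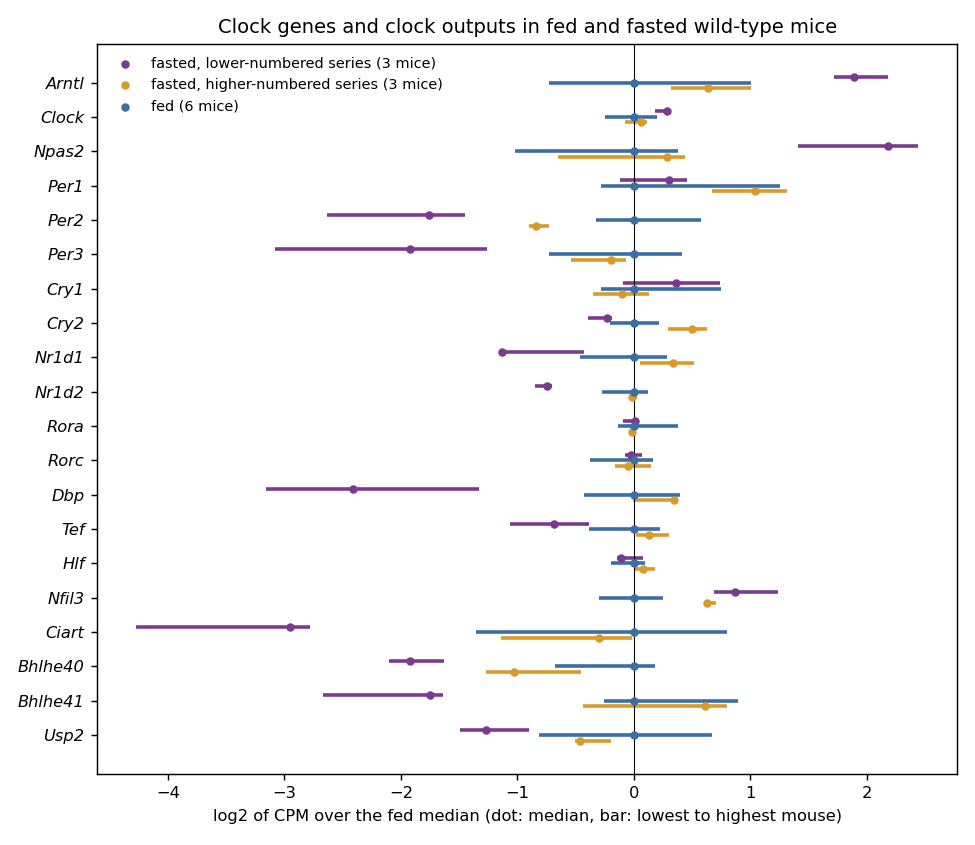
Level of 20 clock genes and outputs as log2 of CPM over the fed median (dot at the median, bar from the lowest to the highest mouse) in 6 fed mice (blue), 3 lower-numbered fasted mice (purple) and 3 higher-numbered fasted mice (orange). *Arntl* and *Npas2* are higher and *Dbp*, *Ciart* and *Per3* lower in the lower-numbered series, whereas the higher-numbered series overlaps the fed mice for these 5 genes.

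In the plot of clock genes by series, *Dbp*, a transcription factor driven by the clock, turned with the series. Fed mice ran from 24.6 to 43.5 CPM, lower-numbered fasted mice from 3.72 to 13.1 and higher-numbered ones from 32.98 to 42.5. It was not called over all 6 fasted mice (-0.55, adjusted p = 0.413, edgeR), was called lower with the lower-numbered (-2.22, adjusted p = 0.00706), and had a log2 fold change of 0.19 with the higher-numbered ones (adjusted p = 0.821). *Dbp* overlaps *Sphk2* on the other strand. *Per2*, a repressor of the clock, was lower in both series, at 4.42 to 10.004 and 14.7 to 16.6 CPM against 21.9 to 40.8 in fed mice (-1.31), but not past the threshold in the higher-numbered one (-0.88, adjusted p = 0.0560, edgeR). *Bhlhe40*, a further repressor, fell overall (-1.21) and stood at -0.80 with the higher-numbered mice (adjusted p = 0.0940, edgeR). *Nfil3*, which opposes *Dbp* at shared sites, rose overall (0.81) and did not divide by series. Both series lay above every fed mouse and overlapped each other, with log2 fold changes of 0.95 (lower-numbered) and 0.65 (higher-numbered). The latter was not past the threshold (adjusted p = 0.0560, edgeR). The labels give no hour of harvest for any mouse, so series and time of day within the fasted group cannot be told apart.

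Lists of immune, proliferative and early response genes were read as well. Interferon and antigen presentation genes were called higher for 7 and lower for 5 of 42 (median 0.14), not far from the shares of all genes (14.5% and 17.5%). The counts were 4 and 6 with only the higher-numbered fasted mice (median 0.02) and 5 and 5 without the 3 mice with high acute-phase RNA. The interferon genes that rose included *Rsad2*, the antiviral protein viperin, from between 5.92 and 12.97 CPM to between 23.8 and 40.1 (1.67), its neighbour *Cmpk2*, a mitochondrial nucleotide kinase (1.37), and *Ifit1*, which binds viral RNA (1.12). Cell division genes were called higher for 2 and lower for 7 of 31 (median -0.25), the number lower being 2 with only the lower-numbered fasted mice and 4 with only the higher-numbered ones. *Ccnd1*, cyclin D1, had overlapping ranges of 20.1 to 47.6 CPM in fed and 17.04 to 27.05 in fasted mice and was not called (-0.52, adjusted p = 0.454, edgeR); it overlaps another gene on the opposite strand, so its values are uncertain. Of 21 immediate early genes 4 were called, all higher (median 0.14), against 1 with only the lower-numbered fasted mice and 1 without the 3 mice with high acute-phase RNA.

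Whether the wild-type response differs from that of WT/Y657* mice was tested as an interaction in the same edgeR fit. Of all genes tested 607 (4.35%) differed, 361 with a more negative and 246 with a more positive log2 fold change in wild-type mice. This split depends on scaling: by library size alone 614 genes differed, 210 more negative and 404 more positive in wild-type mice. In folding genes of the endoplasmic reticulum 12 of 44 differed, 9 when scaled by library size alone and 4 without ALC_WT_847, ALC_WT_849 and ONF_WT_807. *Creld2* had log2 fold changes of -2.68 in wild-type mice and -0.55 in heterozygotes (difference -2.13, adjusted p = 0.00261, edgeR). *Hspa5* had -1.57 and -0.61 (difference -0.96, adjusted p = 0.0468, edgeR). Its difference was -0.88 when scaled by library size alone (adjusted p = 0.0569, edgeR) and -0.75 without the 3 mice (adjusted p = 0.215, edgeR). Of 78 ribosomal proteins 54 differed (34 when scaled by library size alone), among them *Rpl12*, at a log2 fold change of -0.69 in wild-type mice against 0.02 in WT/Y657* (difference adjusted p = 0.00176, edgeR). Without the same 3 mice the number of genes that differed was 228, 26 of them ribosomal proteins. The median difference over ribosomal proteins was -0.43 with all mice and -0.40 without the 3. For folding genes these medians were -0.34 and -0.28. The mutation was present in all cells from conception, so effects arising in liver and elsewhere cannot be told apart.

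Genes of other groups that differed by genotype are given by their wild-type and mutant log2 fold changes. Of 42 interferon and antigen presentation genes 16 differed, 8 without the 3 mice, at median differences of 0.74 and 0.78. Kupffer cell markers had a median difference of 0.73, with 0 of 12 called by edgeR. Lymphocyte markers had one of 1.32, with 1 of 7 called, and what these cells contributed was not tested. *Ifit1* changed by 1.12 and -0.84 (difference adjusted p = 0.000282, edgeR) and *Cmpk2* by 1.37 and -0.46 (adjusted p = 0.000711, edgeR). *Il1r1* fell in wild-type mice and stood at 0.25 in WT/Y657* mice, against -1.80 (adjusted p = 0.000568, edgeR). *Fbp1* changed by 0.52 and -0.54 and *Pfkfb2*, at the opposing step of glucose metabolism, by -0.35 and 0.85 (adjusted p = 0.000583 and 2.7e-05, edgeR). *Nrbp2*, a pseudokinase, rose less in wild-type mice, at 0.28 against 1.22 (adjusted p = 0.000282, edgeR), and its wild-type rise was not called with either series of fasted mice alone or without ALC_WT_856, ALC_WT_860, ONF_WT_824 or ONF_WT_825 (log2 fold changes 0.23 to 0.32). *Nfe2l2*, the antioxidant regulator Nrf2, was not called in wild-type mice (0.17, and 0.20 with an adjusted p of 0.0497 without ONF_WT_918) and stood at -0.50 in WT/Y657* mice (adjusted p = 0.000657, edgeR). In fatty acid oxidation genes 1 of 37 differed, or 2 when scaled by library size alone. The 1 was *Crot*, which rose by 1.67 and 1.14 (difference 0.52, adjusted p = 0.0280, edgeR). Its call was lost without the 3 mice (difference 0.37, adjusted p = 0.172, edgeR).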

How the data were processed

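RNA of 36 livers was measured, 6 mice in each of 6 groups of genotype and state. The authors deposited estimated counts per gene, named in the labels as made with FeatureCount; fractions occurred in 3.64% of the counts above 0, and every count was rounded. Of the 38283 genes 25336 had a count, and 94.9% of the identifiers were found in GENCODE M21, used for symbols, types and lengths. The labels name build mm9 and human genes, whereas the positions in the count table overlap the GRCm38 gene for 99.7% of the identifiers found, so lengths, overlaps and promoters were taken on GRCm38; the annotation used for counting is not known. Depth per library is given in the report's opening, and mice of a group varied with a common biological coefficient of 0.181. Gene-wise models of all 36 libraries with 6 groups were fitted in edgeR 4.0.16 (R 4.3.3) after filterByExpr, which left 13945 genes, with TMM scaling, the robust quasi-likelihood test and Benjamini-Hochberg adjustment over those genes at 0.05. The genotype difference was the interaction of genotype and fasting in that model. Alternatives for scaling and filtering were median-ratio and library-size scaling, no filter and at least 10 counts in every library. Others were DESeq2 1.42.0, the likelihood ratio test, limma-voom (limma 3.58.1) and Bonferroni adjustment. Each of the 12 fed and fasted wild-type mice was left out in turn, and no WT/Y657* mouse was. The 12 libraries alone and each series of fasted mice alone were fitted for the fasting response and not for the genotype difference. Leaving out 3 mice with high acute-phase RNA was added after seeing the data. CPM used TMM-scaled library sizes, and RPKM divides CPM by merged exon length. Counts varied more between mice of a group than sampling of reads would give, the lowest ratio of chi-square to degrees of freedom being 7.00. Genes were named by rule: the 15 largest rises and the 15 largest falls with a mean of at least 1 CPM and no overlap, the 8 largest level changes in RPKM per direction, up to 4 members per list with the smallest p and the clearest member of the minority direction, 15 fixed names, and 5 per direction by genotype difference; of the 230 named in this way the report gives a part, with 6 genes chosen after seeing values and 9 by a promoter element. The 52 gene lists were written from general knowledge, and members and lists were chosen with earlier results of these data known. Promoter letters came from RefSeq on GRCm38.p6. The pipeline was tested on simulated data. Refed and WT/Y657* mice were used in the model and for side values only.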

Additional observations from a re-analysis of the deposited data

Results flagged for a closer look

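In each group of 6 mice of fed or fasted wild-type livers, the gap between the most distant mouse and its nearest neighbour was divided by the range of the group, and ratios above Dixon's 95% critical value were marked as a mouse far from the others. Chance marks about 1 in 20 groups where groups are independent and values normally distributed, and 27 of 292 groups were marked. The same mice recur in all groups, and *Lcn2*, *Saa1*, *Saa2* and *Sdf2l1* were chosen after their values were seen, so these rates cannot be compared. Values are in CPM unless given in percent. ONF_WT_807 was far from the other fasted mice in 10 of them: *C9* (649 against 264 to 404, ratio 0.636), *Derl3* (4.77 against 0.116 to 1.84, ratio 0.629), *Eif4b* (270.4 against 315 to 338, ratio 0.659), *Lcn2* (43.4 against 1.08 to 5.93, ratio 0.885), *Nfil3* (39.6 against 25.9 to 30.6, ratio 0.658), *Pdia6* (167 against 118 to 136, ratio 0.62505), *Saa1* (1663 against 15.5 to 29.3, ratio 0.992), *Saa2* (1130.0 against 7.46 to 21.4, ratio 0.988), *Sdf2l1* (14.03 against 5.28 to 7.80, ratio 0.711) and *Ugt2b37* (2.74 against 0.501 to 1.31, ratio 0.640). ALC_WT_860 was far from the other fed mice in 5 of them: *Cyp2e1* (3953 against 4599 to 4911, ratio 0.674), *G6pc* (1604 against 100.2 to 656, ratio 0.630), *Igfbp1* (127 against 13.4 to 31.8, ratio 0.838), *Lpin1* (652 against 45.8 to 235, ratio 0.688) and *Ugt2b37* (14.5 against 5.45 to 6.74, ratio 0.859). ALC_WT_856 was far from the other fed mice in 4 of them: *Cirbp* (5.27 against 8.41 to 9.38, ratio 0.764), *Cyp4a10* (110.1 against 16.3 to 50.2, ratio 0.639), *Cyp4a14* (148 against 17.1 to 37.6, ratio 0.844) and *Vnn1* (32.6 against 16.0 to 21.1, ratio 0.693). ONF_WT_825 was far from the other fasted mice in 3 of them: *Cyp2b9* (75.0 against 1.61 to 18.5, ratio 0.769), *Pik3r3* (2.44 against 1.52 to 1.86, ratio 0.629) and *Rsad2* (40.1 against 23.8 to 27.5, ratio 0.773). ALC_WT_849 was far from the other fed mice in 2 of them: *Rplp0* (244 against 219 to 225, ratio 0.766) and the share of counts on the 10 most abundant genes, in percent (22.4 against 18.3 to 19.8, ratio 0.637). ALC_WT_847 was far from the other fed mice in 1 of them: *Nipal1* (1.36 against 0.163 to 0.545, ratio 0.681). ALC_WT_850 was far from the other fed mice in 1 of them: *Rpph1* (2519 against 1526 to 1897, ratio 0.627). ONF_WT_919 was far from the other fasted mice in 1 of them: *Pnpla2* (66.8 against 56.2 to 60.04, ratio 0.638). ONF_WT_807 is also 1 of the 3 mice with raised acute-phase RNA, and what set these mice apart, in the animal or in handling, was not tested.

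A difference between genotypes, tested as an interaction in edgeR, was marked for 607 genes. Among the genes named in the report the wild-type log2 fold change minus that of WT/Y657* mice was positive for *Apoa5* 0.53, *Cmpk2* 1.83, *Crot* 0.52, *Cyp2b9* 11.66 (of uncertain size, with fed wild-type mice at 0 to 0.171 CPM), *Eif4b* 0.42, *Elovl5* 1.39, *Fbp1* 1.06, *Ifit1* 1.96, *Nfe2l2* 0.66, *Oat* 1.11, *Plin2* 0.53, *Ppp1r3c* 0.94, *Pygl* 0.71, *Rsad2* 1.84 and *Srebf1* 1.24. It was negative for *Bnip3* -0.50, *Creld2* -2.13, *Dnajc3* -0.70, *Hsp90aa1* -0.91, *Hsp90b1* -0.71, *Hspa5* -0.96, *Hyou1* -1.03, *Il1r1* -2.05, *Mup20* -1.52, *Nrbp2* -0.95, *Pfkfb1* -0.79, *Pfkfb2* -1.20, *Rpl12* -0.71, *Rplp0* -0.50, *Rpsa* -0.58, *Saa4* -1.21, *Scara5* -3.19, *Sdf2l1* -1.62, *Serpina3k* -0.75 and *Syvn1* -1.29. Without the 3 mice with raised acute-phase RNA the difference, given in parentheses, was no longer called for *Apoa5* (0.49), *Bnip3* (-0.46), *Crot* (0.37), *Eif4b* (0.40), *Elovl5* (1.21), *Hsp90aa1* (-0.83), *Hsp90b1* (-0.57), *Hspa5* (-0.75), *Hyou1* (-0.92), *Pfkfb1* (-0.75), *Plin2* (0.46), *Ppp1r3c* (0.89), *Pygl* (0.62), *Saa4* (-0.82), *Scara5* (-3.05), *Sdf2l1* (-1.66), *Serpina3k* (-0.72) and *Syvn1* (-1.23). Each of these kept its sign. With library-size scaling the call was lost for *Hsp90b1* (-0.63) and *Hspa5* (-0.88). The count fell to 228 without these mice, and its split by sign turned with library-size scaling. Whether this difference has a technical or a biological cause was not tested.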

How the results depend on the processing

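Direction and side of the threshold were compared over all alternatives. Counts of genes called on fasting stayed within 1.5 times of 4464, from 3053 to 4657, in all but Bonferroni (991), those changed at least 2-fold within 1.5 times of 842 in all but Bonferroni (384) and at least 10 counts in every library (482, fewer genes tested), and those that differ by genotype within 1.5 times of 607 in all but Bonferroni (28), no filter (386, more genes tested) and leaving out the 3 mice with raised acute-phase RNA (228, fewer mice). Leaving out 1 of the 12 fed and fasted wild-type mice at a time gave 4069 to 4233 genes called. In these fits 794 or more genes changed at least 2-fold and 439 to 605 differed by genotype. No WT/Y657* mouse was left out, so the last of these ranges covers wild-type mice only. Of 132 called genes named 119 kept call and direction in all alternatives but Bonferroni, 13 lost the call at least once and none reversed, and 4 not called passed at least once; Bonferroni, tried on single genes after seeing the data, kept 100 of the 132. Reversed values were those of *Dbp* with the higher-numbered fasted mice (0.19) and *G6pc* by limma-voom (0.14) and over left-out mice (-0.53 to 0.25), and the difference in total count, 173481 with all mice, which ran from -171739 to 1013610 when 1 mouse was left out and was negative for 6; the cause was not tested. No paired analysis was possible because fed and fasted mice share no replicate numbers. Depth limits genes under about 1 CPM, for which a fed mouse gives few counts. Feeding state, time of day, mouse-number series and library index cannot be separated between the fed and the fasted mice. The lower- and higher-numbered fasted mice share feeding state and library index. Bulk RNA does not tell cell types apart, and RNA levels are not protein levels or fluxes.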
